A study of Caenorhabditis elegans with 8 samples.

Results

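Insulin-like peptide genes and the genes of insulin signalling were followed in worms of the species Caenorhabditis elegans, a soil nematode kept in the laboratory, after exposure to a pair of plant biphenols. The members were the rows of a read count table whose symbol is ins- followed by a number, or is daf-28, daf-2, age-1, pdk-1, akt-1, akt-2, sgk-1, daf-18, daf-16 or ist-1. They came to 47 of 21309 rows and 46 symbols, since ist-1 stands on 2 rows. Of these rows 37 hold insulin-like peptide genes (daf-28 included) and 10 hold the receptor and the genes that act inside the cell. The groups were magnolol (3 libraries, 200 µM for 1 h), honokiol (2 libraries, 200 µM for 1 h) and the DMSO control (3 libraries). Magnolol and honokiol are positional isomers from Magnolia bark. The sources used here name no strain or stage and do not say whether replicates came from separate cultures. A p-value therefore measures the spread among these libraries only, which may be technical.

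Insulin-like peptides are small secreted proteins, and the worm has a large family of them. Agonists bind the receptor DAF-2 and switch on the lipid kinase AGE-1, whose product is removed by the phosphatase DAF-18. That lipid recruits the kinases PDK-1, AKT-1 and AKT-2, and SGK-1 belongs to the same kinase family. AKT phosphorylates the FOXO transcription factor DAF-16 and keeps it out of the nucleus, while antagonist peptides oppose the receptor. In the worm this pathway is known for its control of dauer arrest, lifespan, fat storage and stress resistance, and most of its ligands are made in neurons and the intestine.

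Total counts were 30274330 to 35888186 per library. Levels are given as CPM, the read count scaled to a common library size, and as CPM per kb of exon where genes are set beside each other. A change is a log2 fold change ± SE. A gene counts as called where edgeR's quasi-likelihood test, run over the 16813 rows that passed a low-count filter, gave it an adjusted p under 0.05. Replicates differed by more than counting noise, with chi-square per degree of freedom of 8.50 to 41.7, magnolol 2 and control 3 stood apart from the other libraries of their group, and the honokiol libraries differed from each other. Markers of neurons (12 of 13 fixed genes in the table), intestine (10 of 10) and hypodermis (9 of 9) were all above 0. Summed neuron markers spanned 522 to 607 CPM with magnolol, 493 to 529 CPM with honokiol and 526 to 548 CPM in control, and 0 of these genes were called by edgeR (unadjusted p under 0.05 for 2 with magnolol and 1 with honokiol). Summed yolk protein genes spanned 20331 to 31530 CPM with magnolol, 11626 to 18653 CPM with honokiol and 17129 to 20125 CPM in control. Log2 changes moved with exon length across the genes not called. Spearman rho across genes, which are not independent replicates, was 0.35 for magnolol over control, -0.19 for honokiol over control and 0.46 for magnolol over honokiol. Peptide genes are short, with 284 to 955 bases of exon and a median of 422. The genes inside the cell are long, with 1636 to 8296 bases. Values corrected for this trend are therefore given beside the changes of some genes, and changes without such a value stand uncorrected.

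The peptide genes lie on all 6 chromosomes of WBcel235, and 24 of the 37 sit within 25000 bases of another. The group with the most members is on chromosome I between 14012369 and 14037777, with 7 genes from ins-28 to ins-26. On chromosome II, 5 genes lie between 5988524 and 6011321, in the order ins-2, ins-3, ins-4, ins-6 and ins-20. Neighbours had unequal levels. In the chromosome I group ins-27 averaged 8.40 CPM per kb in control and ins-25 averaged 0.0873 CPM per kb. In the pair on chromosome IV ins-7 averaged 8.96 CPM per kb in control and ins-8 averaged 0.270 CPM per kb. The exons of 9 members overlap exons of another gene, by at most 28.2% of their length (ins-13 with acdh-2), and the strand setting of the counting is not given. The exons of ins-33, ins-3 and ins-7 overlap no other annotated exon.

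Peptide transcripts were rare, at 0.00363% to 0.00568% of all counts in a library. Their summed level was 48.4, 39.7 and 42.5 CPM with magnolol, 46.0 and 53.0 CPM with honokiol, and 47.2, 47.6 and 53.7 CPM in control. The groups overlapped in this sum. Per length, the highest control levels were those of ins-17, ins-33, ins-7, ins-37, ins-27, ins-11, ins-3 and ins-4, at 14.8 ± 0.694, 10.7 ± 1.31, 8.96 ± 1.16, 8.71 ± 0.348, 8.40 ± 0.791, 4.48 ± 1.03, 3.90 ± 0.636 and 3.49 ± 1.27 CPM per kb (SD, n = 3). The spread of ins-33 overlaps that of ins-7, and ins-7, ins-37 and ins-27 do not differ beyond their spread. By comparison akt-1 stood at 84.7 ± 2.77 CPM per kb in control and the receptor gene daf-2 at 13.2 ± 1.51 CPM per kb. Counts were above 0 in all 8 libraries for 21 of the 37 peptide genes.

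**Figure D1:**
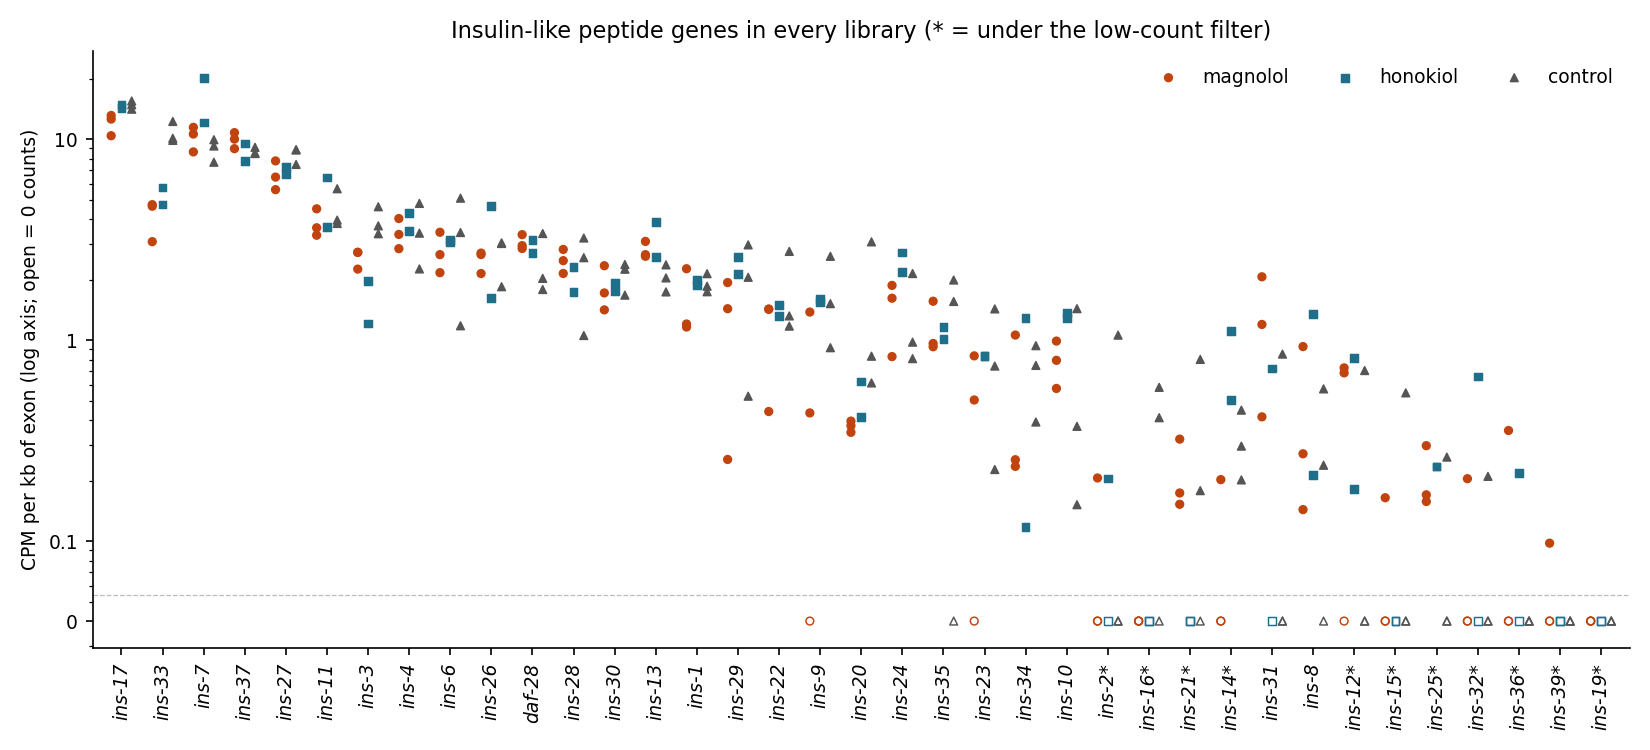
Level of each insulin-like peptide gene in every library, in CPM per kb of exon on a log axis, ordered by mean control level, with open symbols on the bottom line for 0 counts and * for genes under the low-count filter. The spread between libraries widens from left to right, and ins-33 is the gene among the first 5 whose magnolol and honokiol points all lie below its control points.

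The low-count filter left out 11 of the 37 peptide genes and none of the other members. No count was found for ins-19 in any library, which allows up to 3 counts per library, or 0.0848 to 0.0992 CPM, by counting error alone. The antagonist gene ins-39 had 2 counts in magnolol 1 and 0 in the other libraries. Total counts over the 8 libraries were 8 for ins-15, 9 for ins-16, 10 for ins-36, 11 for ins-32, 17 for ins-25, 20 for ins-21, 27 for ins-14, 29 for ins-2 and 33 for ins-12. Of the 29 counts of ins-2, 21 came from control 1. The 9 counts of ins-16 came from control 1 and control 3, and those of ins-36 were 6 in magnolol 2 and 4 in honokiol 2. No comparison was made for these genes. No member row carries the symbol ins-5 or ins-18, of which ins-18 is a listed antagonist, so these peptide genes were not analysed here.

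The first question was which of these transcripts differed after magnolol or honokiol. A single member, ins-33, was called, and it was lower with both compounds. The ins-33 gene (row gene3824) lies on the minus strand of chromosome I from 13637845 to 13639311, with 521 bases of exon. Its transcript stood at 2.42, 1.61 and 2.46 CPM with magnolol, 2.46 and 3.00 CPM with honokiol, and 5.14, 5.26 and 6.38 CPM in control. Every treated library was below every control library. In reads, these were 81, 50 and 87 counts with magnolol, 83 and 101 counts with honokiol, and 176, 177 and 193 counts in control. The change was -1.37 ± 0.23 with magnolol, or 2.58-fold lower, with adjusted p = 0.00277 by edgeR's test. With honokiol it was -1.03 ± 0.26, or 2.05-fold lower, with adjusted p = 0.0414 in the same test. These comparisons share their control libraries. In whole worms, fewer cells that express a gene and less RNA per cell cannot be told apart.

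The call of ins-33 with magnolol held with each of the 8 libraries left out in turn, at changes of -1.47 to -1.20 and adjusted p of 0.00269 to 0.0168. With honokiol it held in 1 of those 8 fits, the one without magnolol 2. Adjusted p was 0.0676, 0.0828 and 0.127 without control 1, 2 and 3, 0.280 and 0.131 without honokiol 1 and 2, and 0.0532 and 0.0608 without magnolol 1 and 3. After the exon length correction the changes were -1.27 ± 0.21 with magnolol and -1.15 ± 0.24 with honokiol, with adjusted p of 0.00152 and 0.00739 in edgeR. By size ins-33 ranked 5 among the 118 genes called lower with magnolol, whose median change was -0.59. With honokiol it ranked 15 of 66, against a median of -0.74. Its nearest tested neighbours were not called: unc-59 on the left was at -0.06 ± 0.09 with magnolol and -0.06 ± 0.10 with honokiol, and dkf-1 on the right was at 0.06 ± 0.11 with magnolol and -0.06 ± 0.13 with honokiol.

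**Figure D2:**
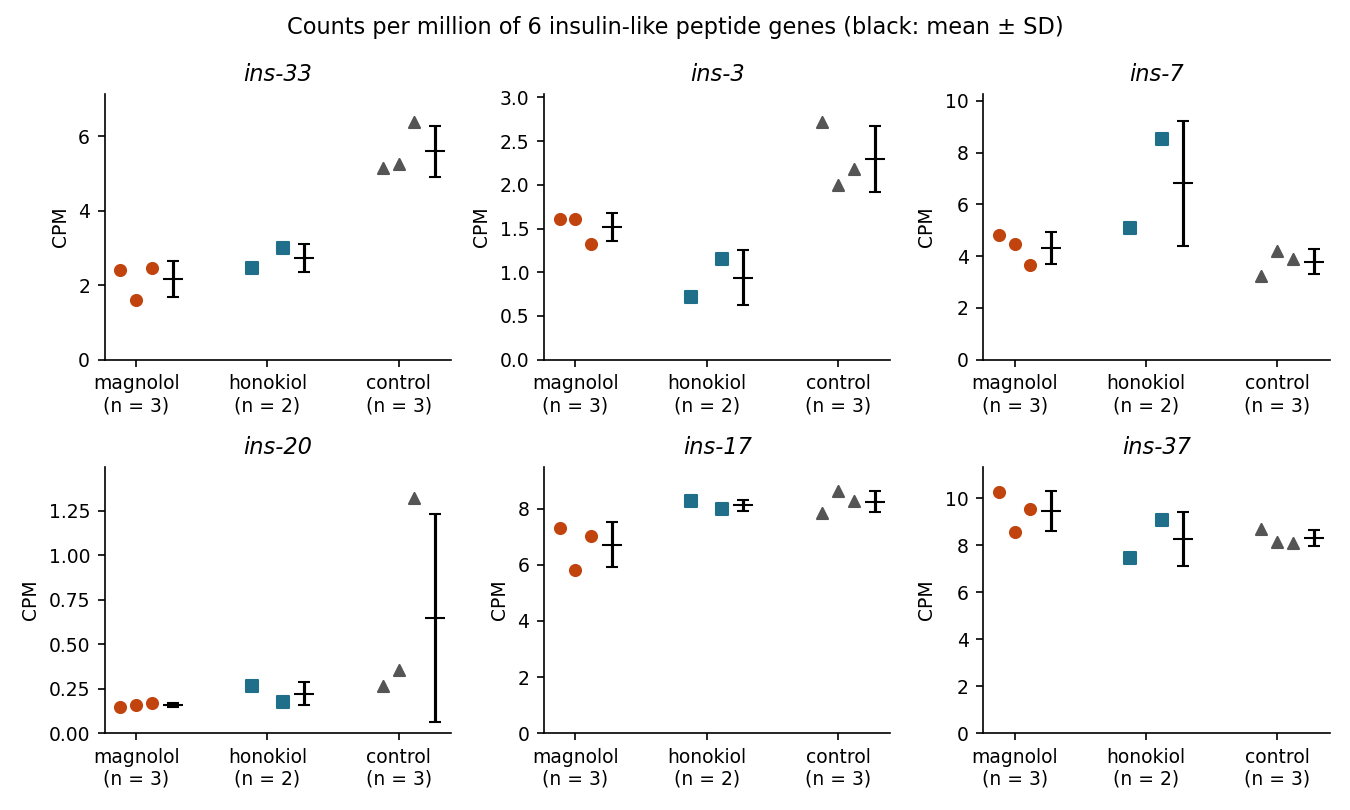
CPM in each library (points, axis from 0) with mean ± SD in black for 6 peptide genes, in magnolol, honokiol and control libraries. The ins-33 libraries lie at 1.61 to 2.46 CPM with magnolol and 2.46 to 3.00 CPM with honokiol, all below the 5.14 to 6.38 CPM of control, while ins-37 overlaps between all groups.

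With magnolol 0 of the 36 tested members were called higher and 1 lower, beside 2.16% and 0.702% of all tested genes (2.87% in either direction). With honokiol 0 were called higher and 1 lower, beside 3.04% and 0.393% of all tested genes (3.43% in either direction). At an unadjusted p under 0.05 there were 4 of 36 members with magnolol (11.1%, against 15.42% of all tested genes) and 3 of 36 with honokiol (8.33%, against 10.84%). The magnolol and control libraries did not overlap for 7 members (19.4%, against 22.2% of all tested genes), and the honokiol and control libraries for 6 (16.7%, against 23.5%). Those shares are near or under the background. The median change of the 26 tested peptide genes was -0.21 with magnolol and 0.02 with honokiol, beside 0.0027 and -0.01 over all tested genes. With the exon length correction these peptide medians were -0.08 and -0.07. The SE of a peptide gene was 0.15 to 1.25 with magnolol, with a median of 0.45, and that of a row inside the cell was 0.084 to 0.56, with a median of 0.11.

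Agonists of the receptor gave mixed values, and none of the 6 tested, of 8 listed, was called with either compound (ins-19 and ins-32 were under the low-count filter). At an unadjusted p under 0.05 in edgeR there were 0 with magnolol, beside 15.42% of all tested genes, and 2 with honokiol (33.3%), beside 10.84%. DESeq2 called 1 with honokiol, ins-3, and limma-voom called 0. The agonist gene ins-3 (row gene6313, chromosome II, 5990099 to 5990768, minus strand) stood at 1.61, 1.61 and 1.33 CPM with magnolol, 0.712 and 1.16 CPM with honokiol, and 2.72, 1.99 and 2.18 CPM in control. All treated libraries were below all control libraries. The change was -0.60 ± 0.32 with magnolol and -1.29 ± 0.37 with honokiol, with adjusted p of 0.389 and 0.0886 in edgeR. For honokiol, adjusted p was 0.0374 in DESeq2 and 0.0488 with the exon length correction.

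The agonist gene ins-7 (row gene18984, chromosome IV, 9682011 to 9682845, minus strand), an intestinal peptide gene that active DAF-16 represses, stood at 4.83, 4.48 and 3.65 CPM with magnolol, 5.11 and 8.52 CPM with honokiol, and 3.24, 4.19 and 3.90 CPM in control. Both honokiol libraries were above all controls and differed from each other, while magnolol and control overlapped. The change was 0.85 ± 0.25 with honokiol, with adjusted p = 0.0877 in edgeR, and 0.19 ± 0.23 with magnolol. With the exon length correction these were 0.70 ± 0.23 and 0.32 ± 0.21. Without honokiol 1 the honokiol value was 1.19, but that fit keeps 1 honokiol library, the higher one. Summed intestine markers spanned 4786 to 5898 CPM with magnolol, 4033 to 4880 CPM with honokiol and 4542 to 5055 CPM in control, and 1 of the 10, the transcription factor gene elt-7, was called higher with honokiol by edgeR, DESeq2 and limma-voom. The part of these markers in the ins-7 values was not tested.

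The sensory agonists that keep larvae out of dauer overlapped between groups. The daf-28 transcript (row gene40382) stood at 2.57, 2.19 and 2.26 CPM with magnolol, 2.08 and 2.40 CPM with honokiol, and 2.60, 1.37 and 1.55 CPM in control, for changes of 0.34 ± 0.30 and 0.28 ± 0.33. The ins-6 transcript averaged 1.43 ± 0.334 CPM with magnolol (SD, n = 3), 1.62 ± 0.0213 CPM with honokiol (SD, n = 2) and 1.68 ± 1.02 CPM in control (SD, n = 3). The ins-4 transcript averaged 2.00 ± 0.345 CPM with magnolol, 2.29 ± 0.335 CPM with honokiol and 2.04 ± 0.741 CPM in control. The ins-9 transcript, of another listed agonist, reached 0 in magnolol 3 and 1.36 CPM in control 3, and its change with magnolol was -1.47 ± 0.86.

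Of the reported antagonists ins-17, ins-37 and ins-1 were tested and 0 were called by edgeR, DESeq2 or limma-voom, or had an unadjusted p under 0.05. The ins-17 transcript (row gene10452, chromosome III) stood at 7.31, 5.80 and 7.01 CPM with magnolol, 8.25 and 7.98 CPM with honokiol, and 7.85, 8.63 and 8.27 CPM in control. Magnolol libraries were below the others, at -0.30 ± 0.15 against control with adjusted p = 0.370 in edgeR, and at -0.22 ± 0.15 with the exon length correction. The honokiol value was -0.02 ± 0.17, and -0.14 ± 0.16 with that correction. The ins-37 transcript stood at 10.3, 8.57 and 9.56 CPM with magnolol, 7.45 and 9.08 CPM with honokiol, and 8.70, 8.15 and 8.10 CPM in control, with changes of 0.19 ± 0.15 and -0.01 ± 0.16. Of its exon bases 17.9% overlap a small nuclear RNA gene on the same strand and 20.1% a noncoding gene on the opposite strand. The ins-1 transcript averaged 1.24 ± 0.503 CPM with magnolol, 1.56 ± 0.0633 CPM with honokiol and 1.54 ± 0.166 CPM in control.

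Among the other peptide genes ins-20 had the next smallest p with magnolol. It stood at 0.149, 0.161 and 0.170 CPM with magnolol, 0.267 and 0.178 CPM with honokiol, and 0.263, 0.357 and 1.32 CPM in control. The magnolol libraries were below the controls, and control 3, with 40 counts, was far above control 1 and 2, with 9 and 12. Counts were 5, 5 and 6 with magnolol and 9 and 6 with honokiol. The gene passed the low-count filter through control 2 and 3 alone, so its lower treated values are no independent evidence of a fall. The change was -1.98 ± 0.83 with magnolol and -1.52 ± 0.93 with honokiol, with adjusted p of 0.269 and 0.685 in edgeR. The ins-27 transcript of the chromosome I group averaged 2.05 ± 0.341 CPM with magnolol, 2.17 ± 0.125 CPM with honokiol and 2.60 ± 0.245 CPM in control. The summed level of that group was 6.38 to 6.68 CPM with magnolol, 6.80 to 8.46 CPM with honokiol and 6.22 to 8.70 CPM in control. The ins-11 transcript, an intestinal peptide gene, averaged 1.49 ± 0.239 CPM with magnolol, 1.97 ± 0.777 CPM with honokiol and 1.75 ± 0.404 CPM in control. The ins-31 transcript stood at 0.835, 0.290 and 1.44 CPM with magnolol, 0 and 0.504 CPM with honokiol, and 0, 0.595 and 0 CPM in control, and the groups overlapped.

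**Figure D3:**
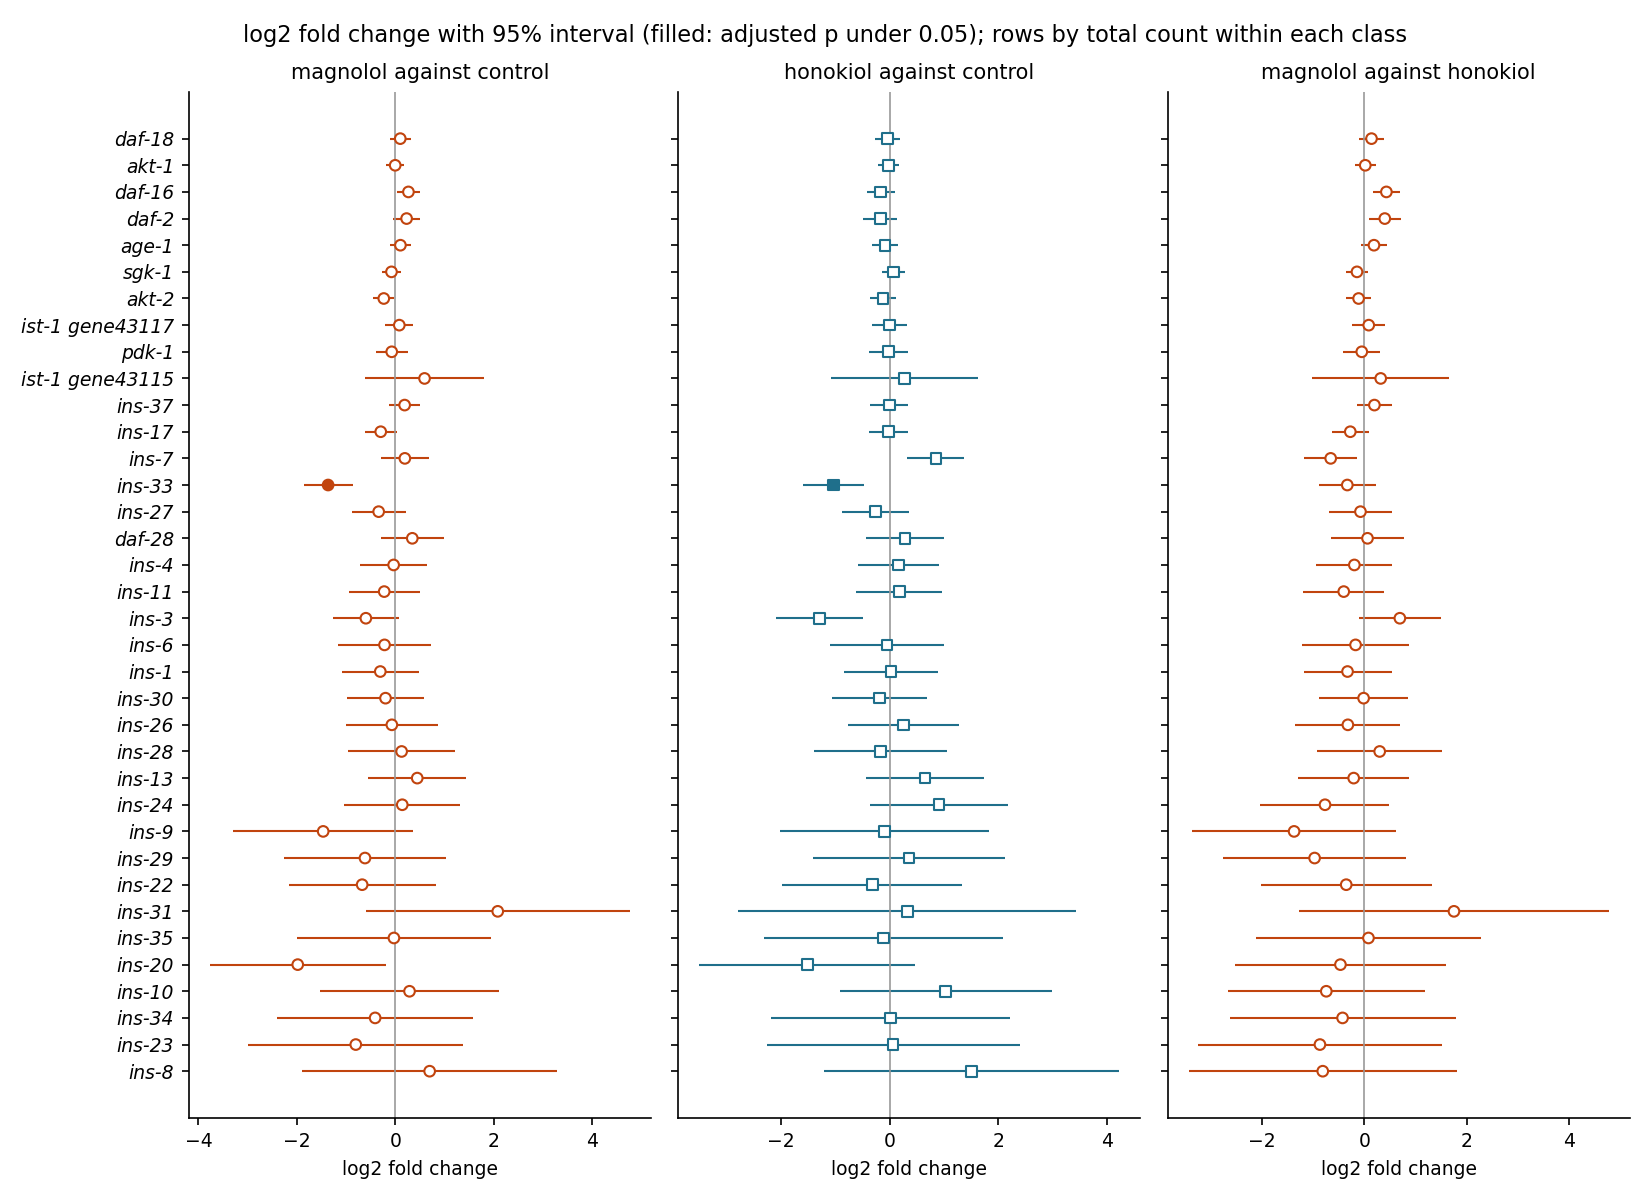
Log2 fold change (points) with its 95% interval (lines) for the 36 tested members, with 1 panel for magnolol over control, 1 for honokiol over control and 1 for magnolol over honokiol, and with filled points for adjusted p under 0.05. Intervals are narrow for most genes inside the cell and wide for row gene43115 of ist-1 and many peptide genes, and the filled points are those of ins-33.

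Of the receptor and the genes inside the cell, 0 of 10 rows were called with either compound. Of all tested genes 2.87% were called with magnolol and 3.43% with honokiol. Changes of these rows spanned -0.24 to 0.59 with magnolol and -0.17 to 0.27 with honokiol, each highest for row gene43115 of ist-1. With magnolol 2 had an unadjusted p under 0.05 in edgeR (daf-16 and akt-2, 20% of 10, beside 15.42% of all tested genes), and with honokiol 0 (beside 10.84%). DESeq2 and limma-voom called 0 of these rows against control. The receptor gene daf-2 (chromosome III, 2994514 to 3040846) stood at 119.5, 154 and 110 CPM with magnolol, 106 and 88.0 CPM with honokiol, and 118.5, 95.1 and 114 CPM in control. Its changes were 0.23 ± 0.13 with magnolol and -0.17 ± 0.15 with honokiol, and 0.01 ± 0.08 and 0.05 ± 0.09 with the exon length correction. For ist-1, which encodes an insulin receptor substrate homologue, row gene43117 averaged 16.12 ± 1.34 CPM with magnolol, 15.2 ± 2.71 CPM with honokiol and 15.2 ± 1.36 CPM in control. Row gene43115 of the same symbol was under 1 CPM in every library.

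The lipid kinase gene age-1 stood at 76.0, 92.3 and 73.7 CPM with magnolol, 68.8 and 72.7 CPM with honokiol, and 71.0, 81.8 and 72.6 CPM in control, with changes of 0.10 ± 0.10 and -0.09 ± 0.12. With the exon length correction both signs turned, to -0.07 ± 0.09 with magnolol and 0.02 ± 0.11 with honokiol. The opposing phosphatase gene daf-18 was the member with the highest CPM, at 237, 276 and 246 CPM with magnolol, 234 and 225 CPM with honokiol, and 240, 254 and 215 CPM in control. Its changes of 0.10 ± 0.10 and -0.04 ± 0.11 also turned with that correction, to -0.05 ± 0.08 and 0.03 ± 0.09. The kinase gene pdk-1 averaged 7.01 ± 0.158 CPM with magnolol, 7.26 ± 0.232 CPM with honokiol and 7.38 ± 0.818 CPM in control. The akt-1 values were the tightest of all members. They were 193, 192 and 192 CPM with magnolol, 194 and 186 CPM with honokiol, and 187, 199 and 193 CPM in control, and the 95% interval of the change was -0.18 to 0.18 with magnolol and -0.22 to 0.18 with honokiol. Corrected for exon length the akt-1 change was -0.12 ± 0.07 with magnolol and -0.05 ± 0.08 with honokiol.

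The akt-2 transcript stood at 36.5, 33.8 and 35.4 CPM with magnolol, 41.3 and 34.8 CPM with honokiol, and 41.5, 44.8 and 38.2 CPM in control. All magnolol libraries were below all controls, at -0.24 ± 0.10 with adjusted p = 0.280 in edgeR, and at -0.35 ± 0.10 with adjusted p = 0.0594 after the exon length correction. The sgk-1 transcript averaged 69.6 ± 5.39 CPM with magnolol, 76.8 ± 3.81 CPM with honokiol and 73.5 ± 2.88 CPM in control. The transcription factor gene daf-16 (row gene2934, chromosome I, 10750498 to 10776703) stood at 124, 160 and 131 CPM with magnolol, 108 and 97.4 CPM with honokiol, and 122, 106 and 118 CPM in control. The magnolol libraries were above all others, with magnolol 2 the highest. The change was 0.26 ± 0.11 with magnolol, with adjusted p = 0.249 in edgeR, and -0.17 ± 0.12 with honokiol. With the exon length correction these were 0.10 ± 0.08 and -0.07 ± 0.09.

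**Figure D4:**
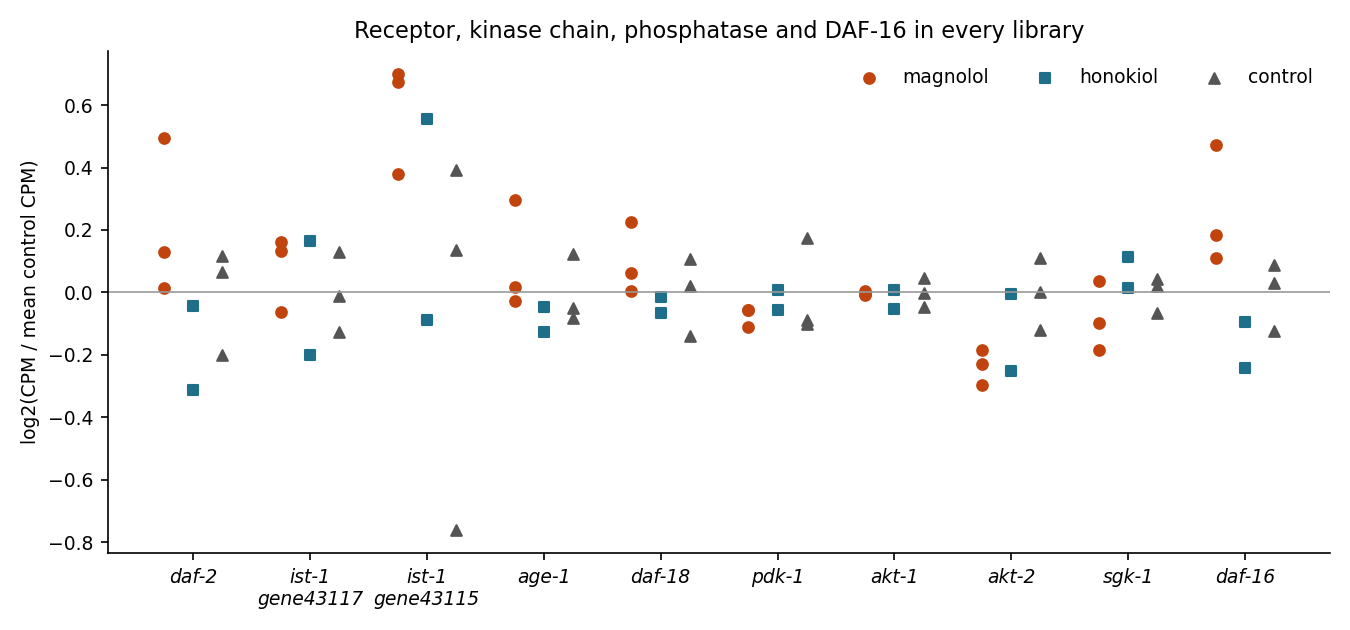
Log2 of the CPM in each library over the mean control CPM for the receptor, kinase, phosphatase and transcription factor genes. Most libraries lie within 0.3 of control, row gene43115 of ist-1 is the most spread, and magnolol 2 is the highest point for daf-2 (154 CPM), age-1 (92.3 CPM), daf-18 (276 CPM) and daf-16 (160 CPM).

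Magnolol and honokiol were then compared directly, at matched dose and time, over the 36 tested members. By edgeR 0 members were called, beside 1.53% of all tested genes, and 3 had an unadjusted p under 0.05 (8.33%, against 16.05% of all tested genes). The libraries of the isomers did not overlap for 13 members (36.1%, against 34.7% of all tested genes), with 5 higher with magnolol (16.4% of all tested genes) and 8 lower (18.3% of all tested genes). DESeq2 called 1 member, daf-16, and limma-voom 0. The difference in ins-33 was -0.33 ± 0.26 with a 95% interval of -0.89 to 0.23, and -0.12 ± 0.24 with the exon length correction, so these libraries do not show whether the isomers act alike on it. For ins-7 it was -0.66 ± 0.24, with an interval of -1.18 to -0.14 and adjusted p = 0.203 in edgeR, and it was -0.37 ± 0.23 with the exon length correction. For ins-3 it was 0.69 ± 0.37, with an interval of -0.11 to 1.495, and 0.90 ± 0.38 with that correction.

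The daf-16 transcript was 1.348-fold as high with magnolol as with honokiol, a difference of 0.43 ± 0.12 with adjusted p = 0.108 in edgeR and 0.0221 in DESeq2. For daf-2 it was 0.40 ± 0.15, with adjusted p = 0.198. With the exon length correction these differences were 0.18 ± 0.09 and -0.04 ± 0.09. The median difference of the 26 peptide genes was -0.33 as tested and -0.05 with that correction, and that of the 10 rows inside the cell was 0.11 and -0.09. Over all 1667 tested genes with at most 600 bases of exon, the median difference was -0.25.

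**Figure D5:**
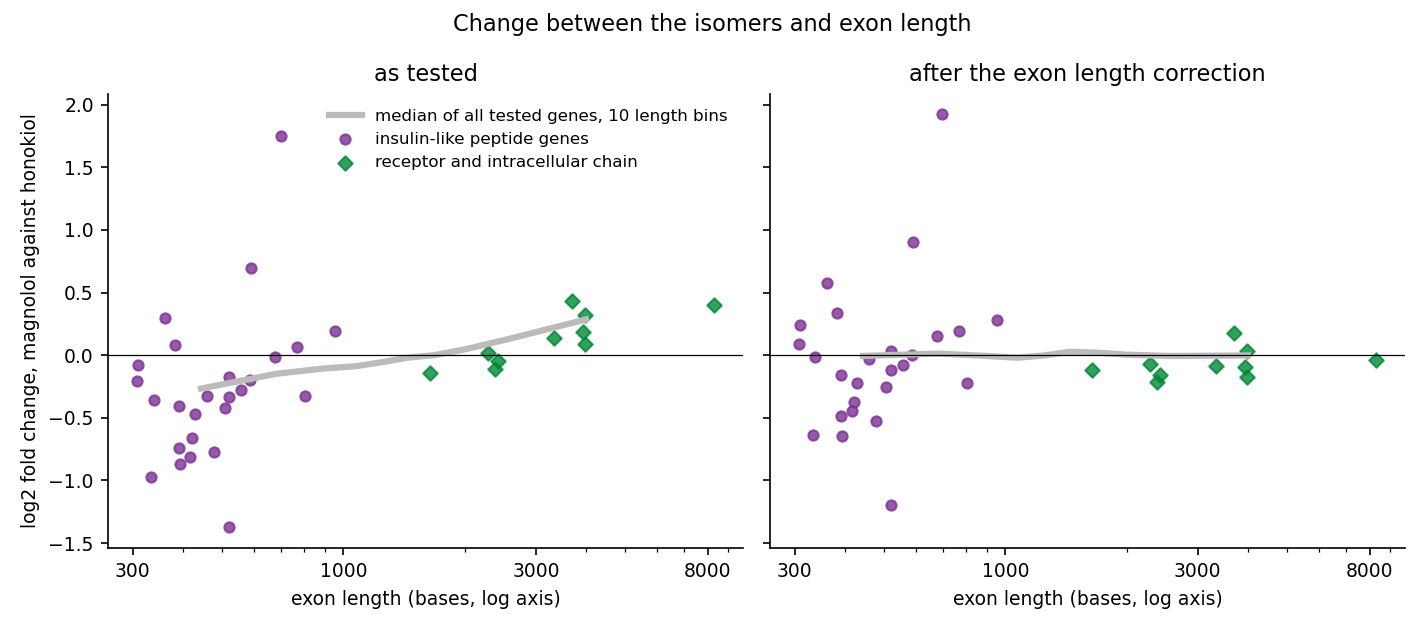
Log2 difference between magnolol and honokiol against exon length (log axis) for the tested members, as tested on the left and after the exon length correction on the right, with the median of all tested genes in 10 length bins in grey. The grey line runs from -0.27 in the bin of shortest genes to 0.29 in the longest on the left and is close to 0 on the right, where daf-2 lies at -0.04.

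Other genes of the pathway came from a list of 58 regulators, of which 56 were in the table and 52 were tested. With magnolol 2 were called higher and 0 lower, and with honokiol 2 higher and 0 lower, and these were daf-36 and pqm-1 in both. That is 3.85% of the 52, near the 2.87% of all tested genes with magnolol and the 3.43% with honokiol. DESeq2 and limma-voom called 1 more with magnolol, the FoxA transcription factor gene pha-4. The daf-36 gene encodes an oxygenase of dafachronic acid synthesis, a steroid hormone pathway that acts with insulin signalling on dauer arrest. Its transcript stood at 17.01, 20.3 and 17.8 CPM with magnolol, 20.7 and 21.99 CPM with honokiol, and 10.8, 7.47 and 9.69 CPM in control. All treated libraries were above all controls. The rise was 0.98 ± 0.14 with magnolol and 1.19 ± 0.16 with honokiol, with adjusted p of 8.02e-04 and 1.72e-04 in edgeR, and it was called in all 8 fits with a library left out. The pqm-1 gene, whose product leaves the nucleus when DAF-16 enters it, was at 57.0, 53.7 and 53.6 CPM with magnolol, 85.1 and 73.9 CPM with honokiol, and 40.0, 36.3 and 33.4 CPM in control. Between the isomers 1 regulator was called (1.92%, beside 1.53% of all tested genes). At an unadjusted p under 0.05 there were 17 (32.7%, 15 higher with magnolol and 2 lower), beside 16.05%. The median difference of the 52 was 0.14, and 0.02 with the exon length correction. DESeq2 and limma-voom also called daf-12 higher, at 0.65 ± 0.16 with adjusted p = 0.0565 in edgeR. DESeq2 alone also called rle-1 and daf-15 higher with magnolol. The 1 regulator called by edgeR was pqm-1, lower with magnolol than with honokiol by -0.54 ± 0.11 (adjusted p = 0.0161). That call was lost without honokiol 1, magnolol 2 or magnolol 3, at adjusted p of 0.0812, 0.0503 and 0.0979.

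None of the 10 genes for peptide processing and vesicle release was called in any comparison by edgeR, DESeq2 or limma-voom. Of all tested genes edgeR called 2.87% with magnolol, 3.43% with honokiol and 1.53% between the isomers. At an unadjusted p under 0.05 there was 1 in each (10%), beside 15.42%, 10.84% and 16.05%. These were unc-31 with magnolol (0.42 ± 0.13), sbt-1 with honokiol (0.28 ± 0.12) and egl-3 between the isomers (0.29 ± 0.13). All treated libraries of unc-31 were above all controls. The genes unc-31, egl-3, egl-21 and ida-1 are also among the neuron markers, so those lists share values. The prohormone convertase gene egl-3 averaged 151 ± 18.2 CPM with magnolol, 123 ± 20.8 CPM with honokiol and 130 ± 9.29 CPM in control. The carboxypeptidase gene egl-21 averaged 126 ± 8.34 CPM with magnolol, 113 ± 2.27 CPM with honokiol and 121 ± 4.10 CPM in control. The adaptor subunit gene of the lipid kinase, aap-1, averaged 60.0 ± 0.676 CPM with magnolol, 58.0 ± 1.37 CPM with honokiol and 56.7 ± 1.15 CPM in control.

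Of 44 symbols listed as DAF-16 targets 39 were in the table, on 40 rows, and 39 rows were tested. With magnolol 3 rows were called higher and 3 lower, and all 6 belong to the class that is higher when DAF-16 is active. They are 15.4% of the 39, beside 2.87% of all tested genes, and 13 (33.3%) had an unadjusted p under 0.05, beside 15.42%. In that class, at an unadjusted p under 0.05, 3 rows were higher and 8 lower. The list was chosen with earlier results of these data known, and the 2 rows of hsp-16.1 hold nearly equal counts in every library. These shares are therefore no independent test, and 2 of the 6 calls repeat 1 signal. The higher rows were fat-5, a desaturase gene, and both rows of hsp-16.1, a small heat shock gene that heat shock factor also drives and whose near-identical copies share reads, so that the split between rows is uncertain. Row gene35931 of hsp-16.1 stood at 36.6, 35.5 and 33.2 CPM with magnolol, 5.64 and 5.28 CPM with honokiol, and 3.62, 5.92 and 6.28 CPM in control, a change of 2.74 ± 0.17 with magnolol and 0.05 ± 0.20 with honokiol. The fat-5 transcript stood at 36.97, 28.1 and 34.6 CPM with magnolol, 42.1 and 44.6 CPM with honokiol, and 18.9, 21.6 and 19.5 CPM in control. The lower genes were ttr-44, of the transthyretin-related family, hsp-12.3, of the small heat shock family, and the ferritin gene ftn-1. DESeq2 and limma-voom also called aqp-1, of the same class, lower with magnolol, at -0.39 ± 0.10 with adjusted p = 0.0535 in edgeR. The ttr-44 transcript stood at 141, 138 and 137 CPM with magnolol, 157 and 175 CPM with honokiol, and 204, 188 and 234.9 CPM in control. Its change was -0.59 ± 0.10 with magnolol, with adjusted p = 0.00259 in edgeR, and -0.33 ± 0.11 with honokiol, with adjusted p = 0.180, or 0.0103 with the exon length correction. The hsp-12.3 transcript stood at 5.28, 5.64 and 4.52 CPM with magnolol, 5.73 and 6.85 CPM with honokiol, and 11.7, 8.51 and 8.90 CPM in control. It fell by 0.92 on the log2 scale with magnolol, with adjusted p = 0.00803, and 0.0542 and 0.0642 without control 1 and magnolol 3. The ftn-1 call was lost without control 2, control 3 or any single magnolol library, at adjusted p of 0.0654 to 0.168.

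With honokiol 1 target row was called higher, fat-5 (1.12 ± 0.13), and 0 lower. That is 2.56% of the 39, beside 3.43% of all tested genes, and 9 (23.1%) had an unadjusted p under 0.05, beside 10.84%. In the class that is higher when DAF-16 is active, 3 of these were higher and 5 lower. With the exon length correction 4 rows were called with honokiol (fat-5, ctl-2, ttr-44 and ftn-1), with ttr-44 and ftn-1 lower at adjusted p of 0.0103 and 0.00639 in edgeR. Without that correction ctl-2 was at -0.29 ± 0.10 with honokiol and was not called. The superoxide dismutase gene sod-3, a usual reporter of DAF-16 activity, stood at 3.16, 2.64 and 2.80 CPM with magnolol, 3.24 and 3.89 CPM with honokiol, and 1.75, 1.87 and 2.55 CPM in control. All treated libraries were above the controls, and neither change was called, at 0.48 ± 0.25 with magnolol and 0.79 ± 0.27 with honokiol. Of the 12 tested genes that are lower when DAF-16 is active, 0 were called against control by edgeR, DESeq2 or limma-voom. Of all tested genes edgeR called 2.87% with magnolol and 3.43% with honokiol. At an unadjusted p under 0.05 there were 2 of the 12 with magnolol (16.7%, beside 15.42% of all tested genes) and 1 with honokiol (8.33%, beside 10.84%). Between the isomers 3 rows were called, or 7.69% of the 39, beside 1.53% of all tested genes. Both hsp-16.1 rows, which repeat 1 signal, were called higher with magnolol. The list was chosen with earlier results of these data known, so the target shares given here are no independent test either. The dod-23 gene, of the class that is lower when DAF-16 is active, was called lower. It stood at 17.5, 16.97 and 16.2 CPM with magnolol and 24.5 and 25.99 CPM with honokiol. Its difference was -0.58 ± 0.13, with adjusted p = 0.0383 in edgeR. That call was lost in 6 of 8 fits with a library left out (those without control 1 or any single honokiol or magnolol library), at adjusted p of 0.0526 to 0.380, and with the exon length correction, at 0.211.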

How the data were processed

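The authors deposited whole-number read counts for each gene, without normalization, and library columns were matched to samples by the library name and title in the labels. WBcel235 (a genome build) and DESeq2 appear in the submitters' processing notes, which give neither a role. Aligner, counter, annotation and strand setting are not given. Members and gene lists were chosen with earlier results of these data known. Symbols were matched to the WBcel235 annotation of Ensembl release 115 (all 47 members and 91.1% of gene-model rows) for positions and exon lengths. Rows were kept by filterByExpr by group (16813 of 21309), scaled by TMM and fitted over all 8 libraries with glmQLFit in edgeR 4.0.16 (R 4.3.3). The contrasts were tested two-sided by glmQLFTest with Benjamini-Hochberg adjustment over all tested rows at 0.05. CPM used TMM-scaled library sizes, and values with ± are mean ± SD (CPM) or log2 fold change ± SE. Intervals of a change are 95%, from the same fit. Alternatives were DESeq2 1.42.0 and its size factors, upper-quartile scaling, limma-voom (limma 3.58.1), a strict low-count filter (at least 50 counts in 3 libraries) or none, a fit of just the compared groups, a block for the replicate number, an exon length correction (a spline of each library's log2 level on log2 exon length, used as an offset), the last 2 together, added loci left out, rows of a symbol summed, a threshold of 0.01 and each library left out. Statistics are given for members called in any comparison, those inside the cell, daf-28, the 8 peptide genes highest per kb in control and the 3 smallest p of each comparison, and for called genes of the lists. Values of ins-1, ins-6, ins-9 and ins-31, of other list genes not called and of neighbours fall outside that rule and were chosen after they were seen. Plots used Python 3.11.15 and matplotlib 3.10.9.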

Additional observations from a re-analysis of the deposited data

How the results depend on the processing

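The number of members called with magnolol was 1 under every alternative, and it was ins-33 each time. With honokiol it was 1 as tested, 2 in DESeq2, with the exon length correction and with no low-count filter, 0 with the replicate block and 0 at a threshold of 0.01, and 0 to 1 with a library left out. The call without honokiol 1 was of ins-7, not ins-33, and that fit keeps 1 honokiol library, so it does not measure the spread of that group. Between the isomers DESeq2 called 1 member and the other alternatives 0. For the regulators between the isomers the count was 1 as tested, 4 in DESeq2, 2 in limma-voom, with no low-count filter and with the strict filter, 0 with the replicate block, alone or with the exon length correction, 0 at a threshold of 0.01, and 0 to 2 with a library left out. For the DAF-16 targets it was 1 with honokiol, against 4 with the exon length correction and 2 with the replicate block and that correction, and 3 between the isomers, against 5 with no low-count filter and 2 to 5 with a library left out. The other counts stayed within 1.5 times, and no called value changed sign, while 67 of 1807 values compared, none of them called, did. Same-numbered libraries did not deviate together (correlations of -0.17 to 0.09 over 7 pairs). The library names skip a number within honokiol, so its replicate numbers may not match those of the other groups. With so few libraries in a group these correlations also depend on each other. They cannot decide whether the samples are paired. With the replicate block ins-33 had -0.93 and adjusted p = 0.160 with honokiol. Depth limits the rare peptide genes: 24 of 37 had a mean control level under 1 CPM.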

Other observations

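Small values in the table were uneven. Over all rows and libraries 524 values were 1, 2339 were 2, 1565 were 3 and 2065 were 4, and 56.7% of the values from 1 to 20 were even. Of the 376 values of the members 0 were 1. The limits given for rare peptide genes cover counting error only, and the origin of the uneven values was not tested.

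Among peptide genes under the low-count filter, ins-14 had 2, 0 and 0 counts with magnolol, 5 and 11 counts with honokiol, and 3, 2 and 4 counts in control. The ins-25 gene had counts in all 5 treated libraries (2, 2 and 4 with magnolol, 3 and 3 with honokiol) and 0, 0 and 3 counts in control. These genes were chosen after their values were seen and were not tested.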
